A study of Oryza sativa with 6 samples.

Results

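Most D-type cyclin transcripts were less abundant in young sro mutant inflorescences of rice than in those of wild type. Of 10 CYCD probe sets, 7 fell and 0 rose by limma at an adjusted p under 0.05, and the 7 that fell stand for 7 of the 9 D-type cyclin genes measured. Their log2 changes (sro minus wild type) ran from -0.88 for CYCD5-2, which is 54.2% of the wild type signal, to -0.24 for CYCD3-1, which is 84.5%. The value for CYCD5-2 is from the dimmer of its 2 probe sets, and the brighter one, at -0.14 and 90.5% of wild type, did not pass the test (adjusted p = 0.146). Of 6 KRP probe sets, which measure inhibitors of cyclin-dependent kinases, 2 fell (KRP6 and KRP5, log2 changes of -0.70 and -0.35) and 0 rose. CYCD4-1 and KRP4 did not pass the test, with log2 changes of 0.04 and 0.078. Of all 57258 probe sets tested, 9.04% were called lower and 5.59% higher in sro. With the brightest probe set of each gene, 6 of 9 CYCD genes and 2 of 4 KRP genes were called lower, against 19.4% of all 17905 genes. The count of CYCD probe sets called ran from 4 to 7 with 1 array left out. In whole inflorescences, fewer dividing cells, another developmental stage or tissue make-up, and less of a transcript per cell cannot be told apart.

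D-type cyclins bind cyclin-dependent kinases and carry outside signals, such as sugar and hormones, into the decision to leave G1 and begin DNA synthesis. Their kinase complexes phosphorylate the retinoblastoma-related protein, which frees E2F factors to switch on genes of DNA replication. KRP proteins (Kip-related proteins) bind the cyclin and its kinase and block them, so cyclin and inhibitor levels together bear on entry into division. In developing flowers both families are known from meristems and young organs, where cells divide.

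The genes were taken by name from the RefSeq gene table of the assembly ASM3414082v1, as those with a symbol or synonym that begins with CYCD or KRP and a number. This gave 16 genes, 10 CYCD and 6 KRP, by a rule that uses no measured value. Joined by gene number to the probe sets that name 1 gene, 13 of them had 16 probe sets in all. CYCD2-1, KRP2 and KRP3 had none and are not analysed here. CYCD5-2, KRP4 and KRP6 had 2 probe sets each. The names rest on the gene table alone. In the following, the 2 probe sets of such a gene are called brighter and dimmer by their mean signal.

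The samples were 6 Affymetrix rice arrays of 4 to 5 mm inflorescences from plants in the paddy field, 3 of the sro mutant and 3 of wild type (Japonica variety 9522), with no special treatment. Each array is 1 biological replicate, collected when most spikelets had begun stamens and carpels. The labels do not give the allele of sro, the number of lines or whether a sample pools plants. This stage was taken because SRO expression peaks there, per the series' design text. The SRO gene itself was not checked, since no table used here names it.

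All 12 measured inflorescence and young flower markers, among them OSH1, FON1, MADS1 and DL, averaged above the level of 10 probe sets for the fungus Magnaporthe, which served as a level without target (4.69 ± 0.017 in sro and 4.65 ± 0.13 in wild type on the log2 scale; SD, n = 3 arrays each). This level is a mean, and the 10 single fungal probe sets averaged from 3.66 to 5.88, so it is no sharp limit. Of these 12, 5 rose and 1 fell by limma (summed linear signal of 26381 to 27114 in sro arrays and 25146 to 25731 in wild type arrays), and 2 rose and 0 fell in an unmoderated linear model. Of all 17905 genes by their brightest probe set, 7.28% were called higher and 19.4% lower by limma. The 5 risers (MADS2, MADS4, MADS16, MADS34 and MADS58) all lost the call without sro replicate 2, sro replicate 3 or wild type replicate 3, so that the count of risers was then 0, and it was 1 without sro replicate 1, 2 without wild type replicate 1 and 3 without wild type replicate 2. The marker that fell was LAX1, a rice regulator of axillary meristems, with 7.30, 7.43 and 7.24 in sro replicates 1, 2 and 3, against 10.07, 8.32 and 9.51 in wild type replicates 1, 2 and 3 (change -1.98, SE 0.37, adjusted p = 0.0107), a call kept in all 6 fits with 1 array left out. At an unadjusted p under 0.05, 3 of the 12 were lower. Without sro replicate 1 the count of markers that fell was 2, since DL passed (-0.47, adjusted p = 0.0294). It was 3 without wild type replicate 2, where OSH1 (-0.33, adjusted p = 0.0258) and FON1 (-0.33, adjusted p = 0.0234) passed. Markers of other tissues also differed between the groups. Of 4 tapetum and late anther markers, RTS, C6 and RAFTIN1 rose, with changes of 3.68, 4.43 and 1.34. C4, at 1.60, did not pass the test (adjusted p = 0.120). The summed signal of the 4 was 1383 to 1506 in sro arrays and 142 to 494 in wild type arrays. Of 3 leaf markers, CAB2R and PORA fell, while RBCS did not pass the test (summed signal of 1056 to 1190 in sro and 1182 to 1354 in wild type). Of 8 seed storage markers, 4 of which averaged above the fungal level, 0 passed the test by limma, 2 were higher at an unadjusted p under 0.05 and 0 passed in an unmoderated linear model (summed signal of 599 to 625 in sro and 463 to 592 in wild type). Without wild type replicate 2, 2 of the 8 rose. The 5 prime end of the dap labelling spike lay at 10.31, 7.95 and 9.48 in sro replicates 1, 2 and 3, against 7.59, 7.55 and 7.77 in wild type replicates 1, 2 and 3. RNA integrity and labelling both bear on the log2 signal of the 3 prime minus the 5 prime probe set of a transcript. For actin this difference was 4.46, 4.94 and 4.90 in sro replicates 1, 2 and 3. In wild type replicates 1, 2 and 3 it was 5.13, 5.24 and 5.17. All 3 sro arrays thus lay below all 3 wild type arrays (exact permutation p = 0.1). For gapdh this difference was 0.42, 0.70 and 0.75 in sro replicates 1, 2 and 3. In wild type replicates 1, 2 and 3 it was 0.39, 0.52 and 0.51, with overlapping groups and a higher sro mean (exact permutation p = 0.3). For the dap spike it was 1.70, 4.17 and 2.58 in sro, in the same order. The wild type values were 4.33, 4.27 and 4.18, without overlap (exact permutation p = 0.1). The median CYCD probe set lay 0.39, 0.41 and 0.43 log2 units below the wild type mean in sro replicates 1, 2 and 3. The part of these markers and controls in the CYCD and KRP results was not tested.

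**Figure D1:**
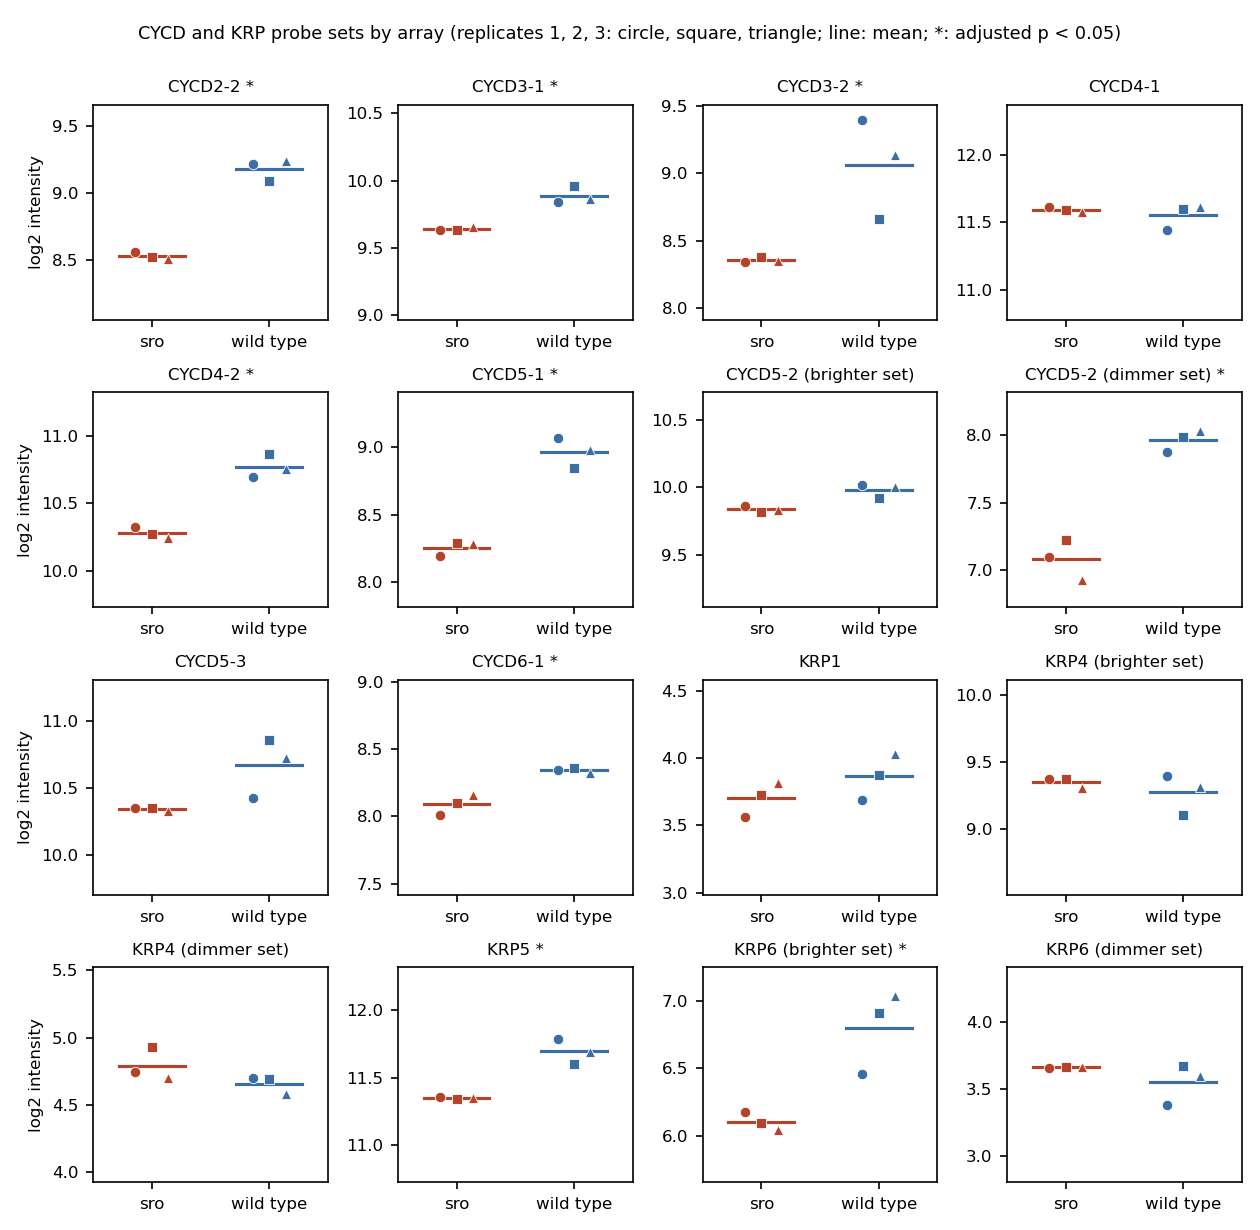
Log2 intensity of each of the 16 CYCD and KRP probe sets on each array, sro in red on the left and wild type in blue on the right. Every panel spans the same number of log2 units, lines are group means and asterisks mark adjusted p under 0.05. In 9 of 10 CYCD panels all 3 sro arrays lie below all 3 wild type arrays, and the wild type points of CYCD3-2 are widely spread.

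All 3 sro arrays lay below all 3 wild type arrays for 9 of 10 CYCD probe sets and 2 of 6 KRP probe sets, against 17.6% of all probe sets tested and 26.5% of those above the fungal level. With the brightest probe set of each gene this held for 8 of 9 CYCD genes and 2 of 4 KRP genes, against 35.8% of all genes. The median log2 change was -0.41 over the CYCD probe sets, -0.043 over the KRP probe sets and 0.024 over all probe sets. The KRP median includes 3 probe sets below or near the fungal level. Over the 4 KRP probe sets that averaged above this level, the dimmer KRP4 probe set among them, the median was -0.135. Over all probe sets above the level it was 0.002. With the brightest probe set of each gene, the KRP median was -0.26, against -0.055 over all genes. This -0.26 still includes KRP1, which lay below the fungal level. All 10 CYCD probe sets averaged above the fungal level, and of all probe sets above it 14.5% were called lower and 8.24% higher. With the brightest probe set of each gene, 6 of 9 CYCD genes and 2 of 4 KRP genes were called lower, against 19.4% of all 17905 genes (7.28% higher). No CYCD or KRP probe set had a rise at an unadjusted p under 0.05, and in an unmoderated linear model 5 CYCD and 1 KRP probe sets fell and 0 rose.

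The largest fall was in CYCD5-2, of the D5 cyclins. In Arabidopsis, CYCD5;1 is known from natural variation in endoreduplication, the copying of DNA without division. The dimmer probe set of CYCD5-2 (LOC4352668, chromosome 12) had log2 values of 7.09, 7.22 and 6.92 in sro replicates 1, 2 and 3, against 7.87, 7.98 and 8.03 in wild type replicates 1, 2 and 3. The groups were 0.65 apart at their nearest arrays, and the change was -0.88 (SE 0.088, adjusted p = 0.000776). The brighter CYCD5-2 probe set had 9.86, 9.82 and 9.83 in sro replicates 1, 2 and 3, against 10.02, 9.92 and 10.0002 in wild type replicates 1, 2 and 3. Here too the sro arrays lay below the wild type arrays, but by a small margin, and the probe set did not pass the test (change -0.14, 95% interval -0.28 to -0.01, adjusted p = 0.146). The 2 probe sets of CYCD5-2 thus differed in the size of the change by 0.74 log2 units, with no overlap between groups in their within-array difference (exact permutation test, two-sided, p = 0.1, and no smaller p can come from 3 arrays against 3). The tables used here do not say which part of the transcript each one reads.

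CYCD5-1 (LOC4333455, chromosome 3) had log2 values of 8.19, 8.29 and 8.28 in sro replicates 1, 2 and 3, against 9.07, 8.85 and 8.98 in wild type replicates 1, 2 and 3. Every sro array lay at least 0.56 below every wild type array, a change of -0.71 (SE 0.074, adjusted p = 0.000935). CYCD5-3 (LOC4331985, chromosome 3) had 10.36, 10.35 and 10.33 in sro replicates 1, 2 and 3, against 10.43, 10.86 and 10.72 in wild type replicates 1, 2 and 3. Its sro arrays were nearly equal and lay below all wild type arrays, of which replicate 1 came within 0.074. Its change of -0.32 (95% interval -0.56 to -0.084) did not pass the test (adjusted p = 0.0777), but did without wild type replicate 1 (-0.44, adjusted p = 0.00995).

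CYCD2-2 (LOC4343936, chromosome 7) belongs to the D2 cyclins, which in Arabidopsis respond to sucrose. It had log2 values of 8.56, 8.53 and 8.51 in sro replicates 1, 2 and 3, against 9.21, 9.09 and 9.24 in wild type replicates 1, 2 and 3. Both groups were tight and 0.53 apart, and the change of -0.65 (SE 0.064) had the smallest adjusted p of the 16 probe sets, 0.000744.

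The D4 cyclins of Arabidopsis act in stomatal and root cell divisions. Here CYCD4-2 (LOC4345844, chromosome 8) had log2 values of 10.32, 10.27 and 10.25 in sro replicates 1, 2 and 3, against 10.70, 10.87 and 10.76 in wild type replicates 1, 2 and 3. All sro arrays lay at least 0.37 below all wild type arrays, a fall to 71.1% of wild type (change -0.49, SE 0.066, adjusted p = 0.00253). CYCD4-1 (LOC4347313, chromosome 9) had 11.61, 11.60 and 11.58 in sro replicates 1, 2 and 3, against 11.45, 11.60 and 11.62 in wild type replicates 1, 2 and 3. Its groups overlapped, and its change of 0.04 had a 95% interval of -0.11 to 0.19 (adjusted p = 0.732), so that a fall of the size seen for CYCD4-2 lay outside it. Set against each other within each array, CYCD4-2 and CYCD4-1 differed in their change by -0.53, with no overlap between sro and wild type arrays (exact permutation p = 0.1).

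The D3 cyclins promote division and hold back endoreduplication in young Arabidopsis organs, and are induced by cytokinin there. CYCD3-2 (LOC4346394, chromosome 9) had log2 values of 8.34, 8.38 and 8.35 in sro replicates 1, 2 and 3, against 9.39, 8.66 and 9.14 in wild type replicates 1, 2 and 3. The sro arrays lay within 0.033 of each other, while the wild type arrays spread over 0.74, the widest range of any of the 16 probe sets in either group. The change was -0.71 (SE 0.16, adjusted p = 0.0237). In the unmoderated linear model its adjusted p was 0.147. The call was lost without sro replicate 1 (adjusted p = 0.0725), 2 (0.0617) or 3 (0.0712) or wild type replicate 3 (0.0869), at changes between -0.67 and -0.72. CYCD3-1 (LOC4340499, chromosome 6) had 9.64, 9.64 and 9.66 in sro replicates 1, 2 and 3, against 9.84, 9.96 and 9.86 in wild type replicates 1, 2 and 3. This fall was small (change -0.24, SE 0.06, adjusted p = 0.0311) and passed only without wild type replicate 1 when 1 array was left out (-0.27, adjusted p = 0.0464), with adjusted p up to 0.0988 in the other 5 fits.

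CYCD6-1 (LOC4343569, chromosome 7) is a D6 cyclin, a subfamily whose Arabidopsis member CYCD6;1 acts in the formative root divisions that give cortex and endodermis. It had log2 values of 8.01, 8.10 and 8.16 in sro replicates 1, 2 and 3, against 8.34, 8.36 and 8.32 in wild type replicates 1, 2 and 3. The groups were 0.16 apart, and the change of -0.25 (SE 0.062, adjusted p = 0.0307) lost its call with any 1 array removed (-0.29 to -0.21, adjusted p 0.0575 to 0.101). It also missed the threshold after quantile normalization (-0.17, adjusted p = 0.123).

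**Figure D2:**
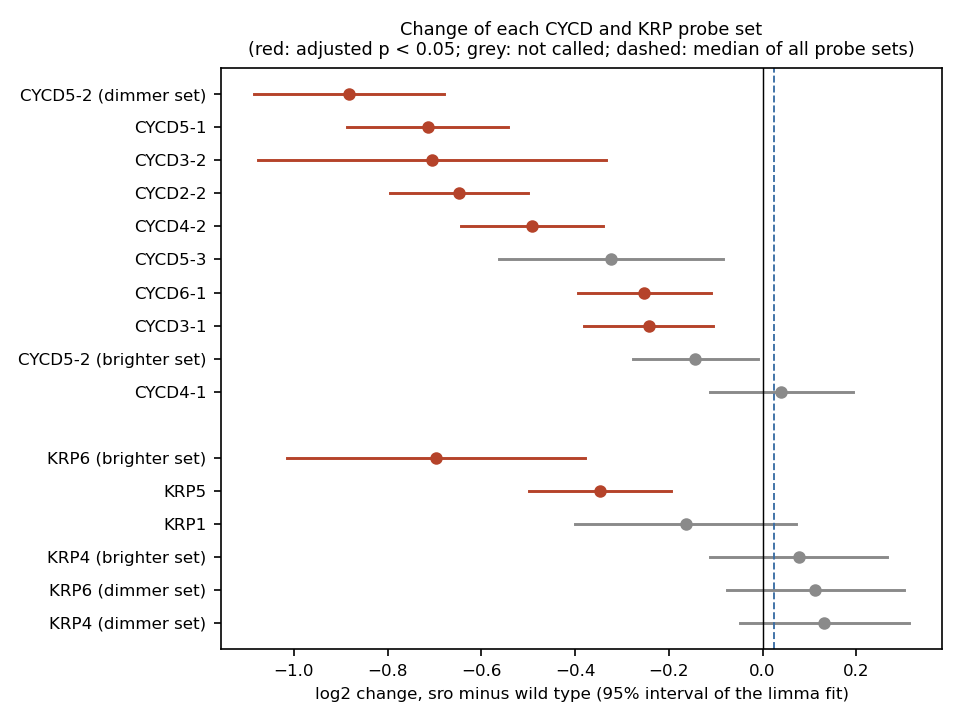
Log2 change (sro minus wild type) of each CYCD and KRP probe set with the 95% interval of the limma fit, called falls in red. The dashed line is the median of all probe sets, 0.024. The 7 called CYCD probe sets lie between -0.88 and -0.24, and no probe set has an interval wholly above 0.

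Among the inhibitors, KRP6 and KRP5 were called lower. KRP6 (LOC4347280, chromosome 9) had log2 values at its brighter probe set of 6.18, 6.09 and 6.04 in sro replicates 1, 2 and 3, against 6.46, 6.91 and 7.03 in wild type replicates 1, 2 and 3. Wild type replicate 1 was the lowest of its group and still 0.28 above every sro array, and the change was -0.70 (SE 0.14, adjusted p = 0.0131). It was -0.87 without wild type replicate 1 and -0.58 without wild type replicate 3. In the unmoderated linear model its adjusted p was 0.107. Its sro values lay only a little above the brightest of the 10 fungal probe sets, which averaged 5.88. The dimmer KRP6 probe set stayed below the fungal level on all arrays, with values between 3.38 and 3.67, so it gives no measure of a change. KRP5 (LOC4331554, chromosome 3) had 11.35, 11.34 and 11.35 in sro replicates 1, 2 and 3, against 11.79, 11.60 and 11.69 in wild type replicates 1, 2 and 3. The sro arrays lay within 0.011 of each other, and the fall was small (change -0.35, SE 0.066, adjusted p = 0.011).

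KRP4 (LOC4348872, chromosome 10) had log2 values at its brighter probe set of 9.38, 9.37 and 9.31 in sro replicates 1, 2 and 3, against 9.40, 9.11 and 9.31 in wild type replicates 1, 2 and 3. All sro arrays lay inside the wild type range, and the change of 0.078 (95% interval -0.11 to 0.27) did not pass the test (adjusted p = 0.582). Its dimmer probe set lay near the fungal level, between 4.58 and 4.93, with overlapping groups (change 0.13, adjusted p = 0.314). KRP1 (LOC4330816, chromosome 2), whose overexpression in rice is known to impair seed filling, was below the fungal level on all arrays, with values between 3.56 and 4.03 and overlapping groups (adjusted p = 0.337). Of the 4 KRP genes measured, KRP4, KRP5 and KRP6 thus had a probe set above the fungal level on average.

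Within arrays, the change of KRP6 was 0.77 log2 units below that of KRP4, and that of KRP5 was 0.43 below that of KRP4, both with no overlap between sro and wild type arrays (exact permutation p = 0.1 each). KRP6 and KRP5 differed in their change by 0.35, with overlap (exact permutation p = 0.4), and CYCD3-2 and CYCD3-1 by 0.46, with overlap (exact permutation p = 0.3). In all, 13 such pairs within a gene or subfamily were compared, chosen with the values known. Of these, 8 reached the exact permutation p of 0.1, which is 0.163 after Benjamini-Hochberg adjustment. One of the 8 sets the dimmer KRP6 probe set, which gives no measure of a change, against the brighter one, and a further pair of the 13 holds the dimmer KRP4 probe set.

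Calls differed in how they bore the loss of 1 array. CYCD2-2, CYCD4-2, CYCD5-1, CYCD5-2 (dimmer probe set), KRP5 and KRP6 (brighter probe set) passed in each of the 6 fits that left out 1 array, while CYCD3-1, CYCD3-2 and CYCD6-1 each failed in at least 4. The count of CYCD probe sets called was therefore 4 without sro replicate 1, 2 or 3 or wild type replicate 3, 5 without wild type replicate 2 and 7 without wild type replicate 1, where CYCD5-3 passed and CYCD6-1 did not. In these 6 fits the adjusted p reached 0.0474 for KRP5 and 0.0499 for KRP6, close to the threshold. For CYCD2-2, CYCD4-2, CYCD5-1 and CYCD5-2 (dimmer probe set) it reached at most 0.0159. In a further fit, sro was represented by replicate 2 alone, assumed to vary like the wild type arrays. The change of CYCD5-2 (dimmer probe set) was then -0.74 and the median CYCD change -0.41. Replicate 2 is also part of the -0.41 with all arrays, so this likeness is no separate check.

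**Figure D3:**
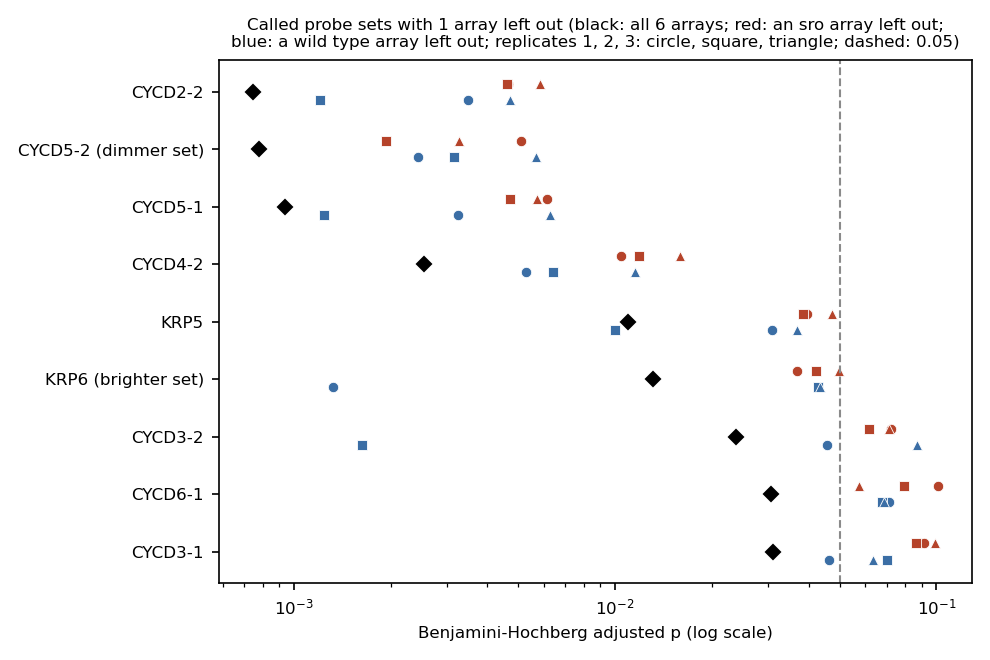
Adjusted p (log scale) of the 9 called CYCD and KRP probe sets with all 6 arrays (black) and with 1 array left out (red: an sro array; blue: a wild type array). CYCD2-2, CYCD5-2, CYCD5-1 and CYCD4-2 stay left of 0.05 throughout. So do KRP5 and KRP6, but close to the line (adjusted p up to 0.0474 and 0.0499). All 6 left-out points of CYCD6-1 lie right of it.

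The sro arrays were more alike than the wild type arrays in 13 of the 16 probe sets, by their SD. The median SD over the 16 was 0.031 in sro and 0.094 in wild type. Over all probe sets tested it was 0.077 in sro and 0.093 in wild type, and with the brightest probe set of each gene it was 0.053 in sro and 0.081 in wild type. The wild type SD was the larger in 58.7% of all probe sets, in 63.7% of those above the fungal level and in 67.7% of genes by their brightest probe set.

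The other genes of the pathway, taken by name with the brightest probe set of each gene, did not all move with the D-type cyclins. Of all 17905 genes, taken likewise, 19.4% were called lower and 7.28% higher, the share to set beside each list below. Of 12 cyclin-dependent kinases outside the B class and their activators, 1 fell and 0 rose by limma (at an unadjusted p under 0.05, 3 were lower and 1 higher). The one that fell was CDKD-1 (-0.35, SE 0.067, adjusted p = 0.0116), a kinase that activates other cyclin-dependent kinases. CDKA-1, of the class that partners D-type cyclins, had 0.025 (adjusted p = 0.84, named after its value was seen), and CDKA-2 had -0.25 (adjusted p = 0.0786, and 0.0196 at -0.33 without wild type replicate 2). CKS1, a docking subunit of these kinases, had -0.21 (adjusted p = 0.102). The median change of the 12 was -0.038, against -0.055 over all 17905 genes.

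Neither of the 2 retinoblastoma-related genes passed the test by limma (0 at an unadjusted p under 0.05). RBR1 had log2 values of 8.41, 8.46 and 8.35 in sro replicates 1, 2 and 3, against 9.41, 8.37 and 8.96 in wild type replicates 1, 2 and 3 (change -0.51, adjusted p = 0.177). Wild type replicate 2 overlapped the sro arrays, and without it the change was -0.78 (adjusted p = 0.0110). RBR2 had -0.077 (adjusted p = 0.395, and 0.0326 in the unmoderated linear model). No gene matched the E2F and DP name patterns, so those factors are not analysed here.

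Of 2 brakes outside the KRP family, 1 rose. SMR1, a SIAMESE-related inhibitor of cyclin-dependent kinases, had values between 11.54 and 11.59 in sro and between 11.11 and 11.14 in wild type, and rose by 0.44 (SE 0.055, adjusted p = 0.00185). EL2, a rice inhibitor of the same family, had 0.37 (adjusted p = 0.0821), and without wild type replicate 2 it had 0.52 (adjusted p = 0.00647).

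Of 14 S-phase genes, 8 fell and 0 rose by limma (0 rose at an unadjusted p under 0.05, and 1 fell and 0 rose in the unmoderated linear model), with a median change of -0.91. ORC4 of the origin recognition complex fell by 0.50 (adjusted p = 0.0049), and the helicase genes MCM3 and MCM5 had -1.28 and -1.46 (adjusted p = 0.0108 and 0.0125). Only 2 of the 8 calls, ORC4 and MCM3, passed whichever array was left out, and MCM5 missed it without wild type replicate 3 (-1.42, adjusted p = 0.0539). Of 8 mitotic A- and B-type cyclins and B-type kinases, 5 fell and 1 rose, against 19.4% and 7.28% of all genes. CYCB2-2, CDKB2-1 and CYCB1-1 had -0.91, -0.60 and -0.54 (adjusted p = 0.000125, 0.000744 and 0.000917). The riser was CYCA1-4 (0.29, adjusted p = 0.0262), named after its value was seen, and it missed the threshold in 4 of 6 fits with 1 array left out, with adjusted p up to 0.0970 without sro replicate 3. Of 8 cyclins of other classes, 1 fell, CYCP3-1 (-0.32, adjusted p = 0.00847), and 0 rose by limma (1 at an unadjusted p under 0.05). Their median change was -0.059. This list includes CYCF2-2, which also averaged below the fungal level (4.17 in sro and 4.17 in wild type). CYCP4-1 had -0.52 (adjusted p = 0.0592) and passed without sro replicate 2 (-0.64, adjusted p = 0.0353) or wild type replicate 2 (-0.65, adjusted p = 0.0274), and CYCL1-1 had 0.20 (adjusted p = 0.0854).

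**Figure D4:**
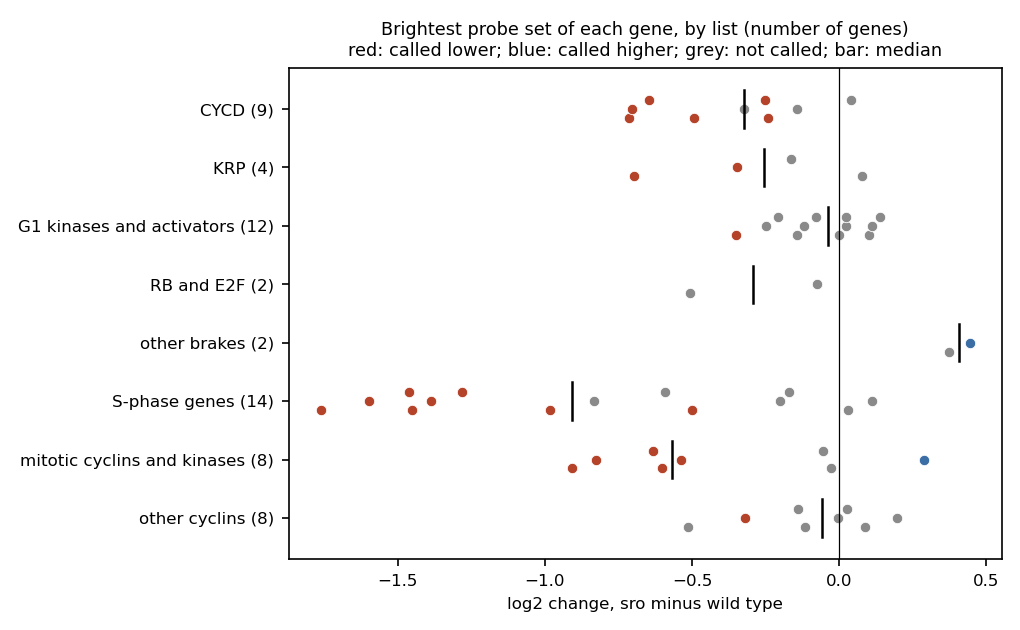
Log2 change (sro minus wild type) of the brightest probe set of each gene, by list, with red for called falls, blue for called rises, grey for genes not called and a bar at the median. The medians are -0.32 for CYCD, -0.26 for KRP, -0.91 for the S-phase genes and -0.038 for the kinases and their activators, and SMR1 and CYCA1-4 are the called rises. The KRP median includes KRP1, which lay below the fungal level.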

How the data were processed

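Log2 intensities per probe set were deposited by the authors, 1 column per array. The submitters' processing notes name RMA, which summarises probes on a common scale, and Partek, with no versions. The log2 scale was inferred from the values, and probe-level settings and detection calls are unknown. Values were used as deposited, without filter. The 123 Affymetrix control probe sets (AFFX) were left out. The number of arrays limits precision.

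Each of 57258 probe sets was fitted with limma 3.58.1 in R 4.3.3 (lmFit, eBayes without trend, no covariates, two-sided, Benjamini-Hochberg over all probe sets, threshold 0.05), and each adjusted p is from this fit unless another is named. The fit was tested on simulated data. Single values were compared by exact permutation (scipy 1.17.1). Genes were named through the GEO platform annotation and RefSeq gene numbers.

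The members and lists were chosen with earlier results of these data known, and the fungal level after values were seen. By rule, CYCD and KRP genes that were called, or among the 5 brightest of their family, are given array by array, with up to 3 genes per list by smallest p. Alternatives were the replicate number as a block, trend, no moderation, centring, quantile normalization, a filter on dim probe sets, array weights, 1 probe set per gene and leaving out arrays.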

Additional observations from a re-analysis of the deposited data

How the results depend on the processing

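Over the alternatives, 199 of 235 log2 changes of single CYCD and KRP probe sets kept their direction and their side of the threshold, 30 lost the call, 4 gained one and 2 changed sign. The sign changed for CYCD4-1 without wild type replicate 1 (-0.014) and for KRP4 at its brighter probe set without wild type replicate 2 (-0.0044), and neither was called in any of these fits. With 1 array left out, CYCD4-1 ran from -0.014 to 0.071 and this KRP4 probe set from -0.0044 to 0.14. The count over all probe sets was 8377, between 4589 and 7907 with 1 array left out, 4965 unmoderated and 668 with sro replicate 2 alone, a setting chosen after seeing the data. The CYCD count of 7 ran from 4 to 7 with 1 array left out and was 1 with sro replicate 2 alone. It was 8 with trend, 7 with median centring, the filter or array weights, and 5 unmoderated, with quantile normalization or with the replicate block (CYCD6-1 lost its call in all 3 settings, CYCD3-2 unmoderated and CYCD3-1 in the others, with adjusted p of 0.0761 for CYCD3-1 and 0.073 for CYCD6-1 with the block). The KRP count of 2 was 1 unmoderated and 0 with sro replicate 2 alone, and 2 otherwise. The pathway count of 17 genes was 27 with trend, 10 unmoderated, 1 with sro replicate 2 alone and between 11 and 22 with 1 array left out. With 1 probe set per gene, which adjusts over fewer tests, 8 of 9 CYCD genes were called, since CYCD5-3 (adjusted p = 0.0495) and CYCD5-2 at its brighter probe set (0.0424) then passed, and 26.8% of all genes were called lower in this setting. Same-numbered arrays did not deviate together (correlations of -0.019, -0.028 and -0.0037). This gives no sign of pairing, but it cannot show whether same-numbered samples were collected or processed together, and the labels do not say. The replicate block gave 6315 calls over all probe sets and changed no other CYCD or KRP call. Probe sets near the fungal level (KRP1 and 1 each of KRP4 and KRP6) give no measure of change. Where a cause of these differences is not named, the cause was not tested.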

Other observations

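The wide spread of CYCD3-2 among wild type arrays, lowest in replicate 2 and highest in replicate 1, was also seen in other genes of the same pathway. Of the 14 S-phase genes, 10 were lowest in wild type replicate 2, intermediate in replicate 3 and highest in replicate 1, and in 9 of these the range over the wild type arrays exceeded 0.5 log2 units. RBR1 had the same order with a range over 0.5. Over all 17905 genes, 20.6% had this order and 1.94% had it with a range over 0.5. None of the other 9 CYCD probe sets and none of the 6 KRP probe sets had it with such a range. KRP6 (brighter probe set) and CYCD5-3 were instead lowest in wild type replicate 1. Outside the pathway, the marker LAX1 had the order of CYCD3-2, with 10.07, 8.32 and 9.51 in wild type replicates 1, 2 and 3. Some other markers had the reverse order, among them C4 (5.79, 8.61 and 7.85), GLUB-5 (3.75, 5.18 and 4.47) and PROLM25 (5.42, 6.90 and 6.48). These patterns were noticed in the values and were not tested.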
